A study of Mus musculus with 3 samples.

Results

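The genes described here are 9 matrix metalloproteinase (MMP) genes of the mouse, *Mmp2*, *Mmp3*, *Mmp8*, *Mmp12*, *Mmp15*, *Mmp16*, *Mmp17*, *Mmp19* and *Mmp23*. They were taken by symbol from the 55422 genes of the feature tables, and *Mmp9*, *Mmp11*, *Mmp13* and *Mmp14* were left out because they had been described already. All 9 symbols occurred once, and all 9 had at least 1 unique molecular identifier (UMI, a tag that counts each captured RNA molecule once) in the cells of every library. The data are droplet single-cell RNA-seq counts of long bone cells from untreated 3-week-old male mice of the C57BL/6 strain (C57BL/6J for the metaphyseal libraries in the study's methods). Both metaphyseal libraries (replicates 1 and 2) came from dissected metaphysis of wild-type bone, depleted of haematopoietic lineage cells, of CD45+ and of CD117+ cells. The third library (*Pdgfra-GFP* replicate 1) held cells sorted for GFP from mice in which a nuclear H2B-GFP is knocked into 1 allele of *Pdgfra*, so that cells with an active *Pdgfra* promoter are enriched. The 3 libraries held 2389, 2011 and 11319 cells with a median of 6257, 6458 and 5354 UMIs per cell. For the sorted library the study's results name the metaphysis-epiphysis region and its methods the metaphysis, so the tissue taken may differ as well. There was only 1 sorted library, so no difference between sorted and depleted cells was tested.

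MMPs are zinc-dependent proteases that cut collagens, proteoglycans and other proteins of the extracellular matrix, and most are made as inactive precursors. Mmp2 is a secreted gelatinase, Mmp3 (stromelysin) cuts proteoglycans and activates other MMPs, Mmp8 is the collagenase stored in neutrophil granules, and Mmp12 is the elastase of macrophages. Mmp15 and Mmp16 span the membrane, Mmp17 is held there by a glycolipid anchor, Mmp19 is secreted, and Mmp23 is a type II membrane protein that is released when its precursor is cut. In long bone, MMPs take part in the removal of cartilage matrix at the chondro-osseous border, where vessels and stromal cells enter from the metaphysis. Septoclasts (SCs) are mononuclear stromal cells beside the vessel tips at this border, and the study examined their molecular properties.

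*Mmp3*, *Mmp8* and *Mmp12* lie in a cluster of 10 MMP genes that spans 427 kb of mouse chromosome 9 (GRCm38, Gencode M21). *Mmp12* is at chr9:7344381-7369499, *Mmp3* at chr9:7445822-7455975 and *Mmp8* at chr9:7558456-7568485, all on the plus strand. *Mmp2* (chr8:92827291-92853420) and *Mmp15* (chr8:95352268-95375080) share chromosome 8, and *Mmp16* (chr4:17852893-18119145) and *Mmp23* (chr4:155650655-155653384, minus strand) share chromosome 4 at a distance. *Mmp17* is at chr5:129584169-129611099 and *Mmp19* at chr10:128790910-128800824. All 9 are annotated as protein coding. The annotation puts the antisense transcript Gm47093 along all 9915 bases of *Mmp19*, and the protein-coding *Tmem198b* overlaps *Mmp19* on the other strand by 789 bases. *Mmp1b* overlaps the end of *Mmp12* on the other strand by 1261 bases. Low counts of *Mmp19* and *Mmp12* carry the uncertainty of these overlaps where strand was not used. RefSeq promoter windows were at hand for 5 of the 9 genes. The 4 printed here are the 250 bases before the start on GRCm38.p6. They belong to the 3 members of the chromosome 9 cluster and to *Mmp15*, whose highest levels were in endothelial cells. Capitals mark the AP-1 letters TGANTCA and the TATA letters TATAAA, searched on both strands. The 2 motifs share no bases where they occur.

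Mmp3, chr9:7445572-7445821, plus strand: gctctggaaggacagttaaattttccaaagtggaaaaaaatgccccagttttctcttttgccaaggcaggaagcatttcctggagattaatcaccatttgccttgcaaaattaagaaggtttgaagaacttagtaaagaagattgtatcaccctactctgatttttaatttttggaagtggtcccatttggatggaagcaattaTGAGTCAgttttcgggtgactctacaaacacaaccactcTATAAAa
Mmp8, chr9:7558179-7558428, plus strand: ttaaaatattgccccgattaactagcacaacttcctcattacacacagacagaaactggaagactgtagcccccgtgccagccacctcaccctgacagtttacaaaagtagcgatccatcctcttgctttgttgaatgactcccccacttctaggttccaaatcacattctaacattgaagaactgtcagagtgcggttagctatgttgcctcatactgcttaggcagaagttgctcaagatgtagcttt
Mmp12, chr9:7344147-7344396, plus strand: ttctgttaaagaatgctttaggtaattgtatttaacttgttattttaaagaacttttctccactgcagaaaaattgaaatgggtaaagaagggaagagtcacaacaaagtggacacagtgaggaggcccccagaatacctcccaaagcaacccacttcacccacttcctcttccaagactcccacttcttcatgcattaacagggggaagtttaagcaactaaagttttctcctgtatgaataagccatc
Mmp15, chr8:95352046-95352295, plus strand: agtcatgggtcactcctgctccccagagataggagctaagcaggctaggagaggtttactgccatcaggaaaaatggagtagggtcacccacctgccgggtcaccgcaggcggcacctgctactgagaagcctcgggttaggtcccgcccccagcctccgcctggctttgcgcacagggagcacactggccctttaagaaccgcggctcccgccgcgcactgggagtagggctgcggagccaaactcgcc

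The *Mmp3* window held an AP-1 match at 46 to 40 bases before the start and a TATA match at 7 to 2 bases before it. The other windows shown held neither motif, but a second RefSeq start of *Mmp12*, not shown, had an AP-1 match at 44 to 38 bases before it. Among 32851 RefSeq windows of this length, 6.75% held the AP-1 letters and 12.4% the TATA letters. The *Mmp3* and *Mmp8* windows had a GC content of 37.6% and 44.8%, and that of *Mmp15* 63.6%. These matches describe the letters only.

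Cells were placed in populations by marker genes that include no MMP gene, and a population is called "-like" since its name was rebuilt from the counts. Cells fell into SC-like, metaphyseal mesenchymal stromal cell (mpMSC)-like, diaphyseal mesenchymal stromal cell (dpMSC)-like, osteoblast (OB)-like, chondrocyte-like, fibroblast-like, mural-like, endothelial cell (EC)-like and haematopoietic classes, and 6.01% of 15719 cells stayed ungated. EC-like cells were divided into arterial (aEC), metaphyseal (mpEC), bone marrow (bmEC) and other EC. Levels are in CPM, the UMIs of a gene for every 1000000 UMIs. Known markers that no gate used were then read. *Sp7*, of the osteoblast lineage, reached 195 to 234 CPM in OB-like cells and 125 to 191 in mpMSC-like cells. *Sox9* reached 427 to 656 in chondrocyte-like cells, and *Kdr* of endothelium at least 519 in each EC class against at most 23.5 elsewhere. *Pdgfrb* and *Pdgfra* were higher in dpMSC-like (504 to 703 and 101 to 256) than in mpMSC-like cells (219 to 270 and 37.7 to 91.6). *Fcer1g* stood at 1078 to 1211 in neutrophil precursor-like cells, but at 3634 in macrophage-like cells and at 1946 and 2412 in other haematopoietic cells. It also reached 479 to 613 in mpEC-like cells, so it did not set the neutrophil precursor gate apart. *Scara5* stood at 102 in fibroblast-like cells. In SC-like cells of the sorted library *Fabp4* stood at 106, beside 319 in dpMSC-like cells, and *Pdpn* at 0. The study does not name either gene as an SC marker, but it found PDGFRα and PDGFRβ in SCs by a *Pdgfra-GFP* reporter and by immunostaining. Those are GFP and protein signals, whereas the levels here are of RNA, and 1 allele of *Pdgfra* carries GFP in the sorted library. *Pdgfrb* stood at 513 in SC-like cells of that library, beside 504 in dpMSC-like and 242 in mpMSC-like cells. *Pdgfra* stood at 17.4, below 101 and 37.7 in the same order. None of these genes set SC-like or mpMSC-like cells apart, so neither gate had a supporting check. mpMSC-like cells are the reference of the comparisons below. Each level is the share of a gene among all UMIs of a population's summed cells in a library, with an exact 95% Poisson interval in brackets where 1 library stands alone, and intervals cover counting error only. The floor that a count of 0 allows is 3 UMIs. Sums of at least 20 cells were used, which gave 38 sums of 17 populations, 10 of them with all 3 libraries. SC-like cells passed this limit only in the *Pdgfra-GFP* library (219 cells), since the metaphyseal libraries held 15 and 11. Libraries shared 0, 9 and 10 cell barcodes in pairs.

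**Figure D1:**
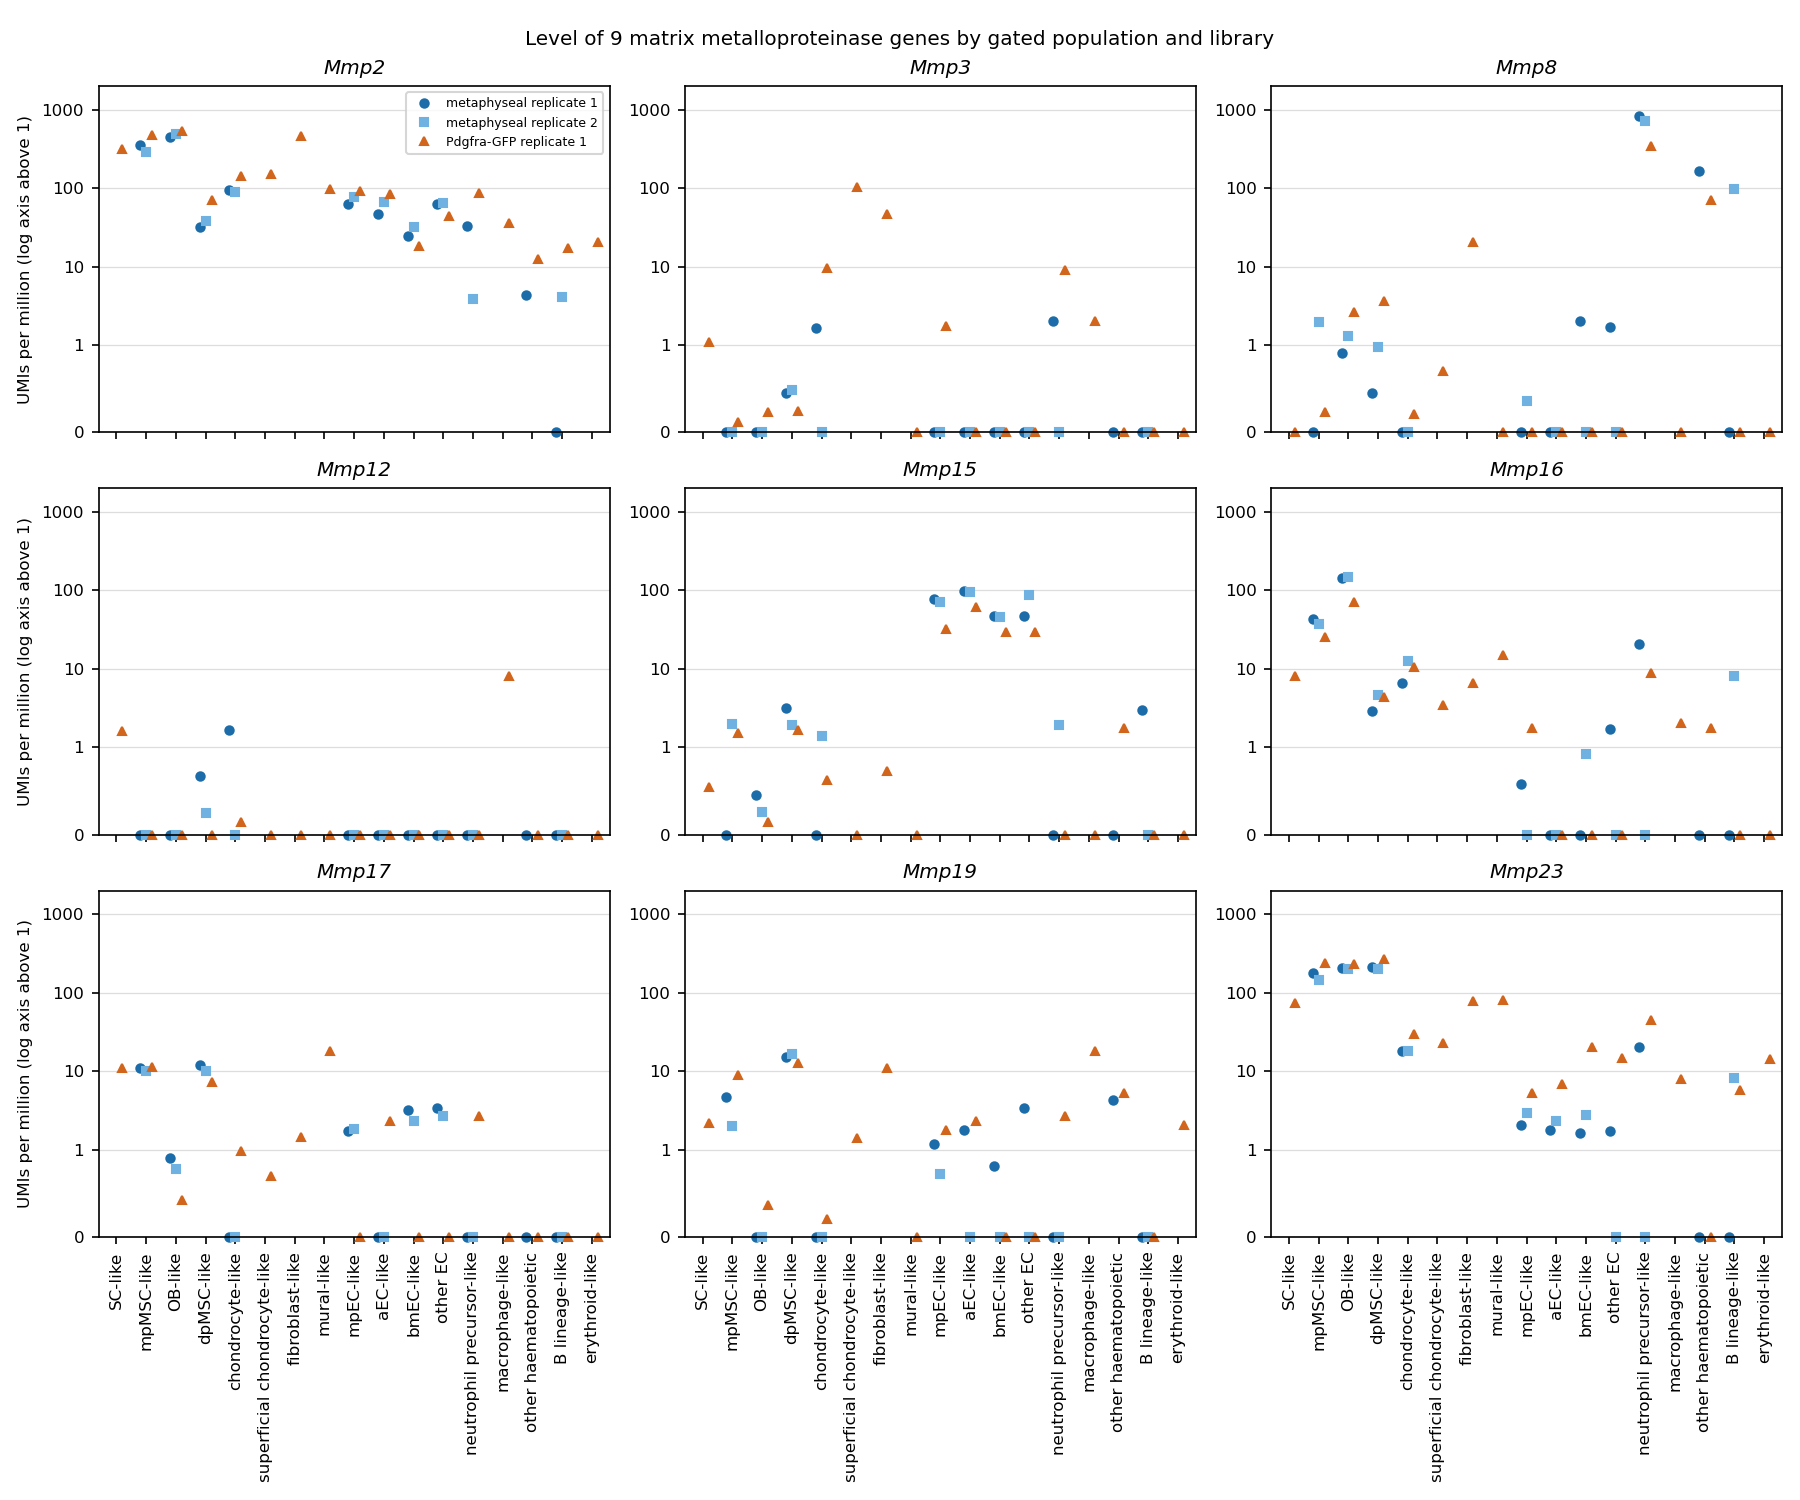
Level of each gene in CPM (vertical axis, logarithmic above 1) in the gated populations (horizontal axis), 1 point for each library with at least 20 cells. *Mmp15* points stand high over the 4 EC classes and *Mmp8* points over neutrophil precursor-like cells (342 to 823), while *Mmp2* and *Mmp23* points are high over several stromal populations.

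The 9 genes differed widely in how many cells carried them. *Mmp2* was seen in 7093 cells (45.1% of 15719, 27939 UMIs) and *Mmp23* in 7111 (45.2%, 16828 UMIs). *Mmp16* was seen in 1935 cells (12.3%) and *Mmp15* in 791 (5.03%). *Mmp17*, *Mmp19*, *Mmp8* and *Mmp3* were seen in 437, 496, 204 and 145 cells. *Mmp12* had 15 UMIs in 13 cells and was the only member that did not pass the filter on low counts, so 8 of 9 were tested.

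Each gene was first set against the whole range of populations. The quasi-likelihood test of edgeR (Benjamini-Hochberg adjusted) over all genes and 11 populations called 30 of 88 pairs of member and population, 25 higher and 5 lower than the mean of the other populations. The same test called 34.2% of all pairs of gene and population, 24.7% higher and 9.50% lower, so the share of calls does not set the members apart.

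*Mmp2*, the gelatinase, was found at high levels in bone-forming and stromal cells. OB-like cells held 448, 486 and 536 CPM in metaphyseal replicate 1, metaphyseal replicate 2 and the sorted library, the order of values used throughout, and mpMSC-like cells 354, 287 and 479. OB-like cells were the higher in each library, but the 2 ranges overlapped. Chondrocyte-like cells followed with 93.5, 89.9 and 142, below every mpMSC-like value. mpEC-like cells held 62.7, 78.1 and 92.4, and aEC-like cells 46.8, 67.2 and 85.3, so these neighbours in the order overlapped. dpMSC-like cells, the stroma of the marrow, held 32.1, 37.7 and 70.2, and bmEC-like cells 24.3, 31.8 and 18.3. Both kinds of stroma therefore lay far apart in this gene.

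In the sorted library, fibroblast-like cells held 461 (425 to 498) *Mmp2* CPM and SC-like cells 316 (290 to 342). Mural-like cells held 96.8 (66.2 to 137) and superficial chondrocyte-like cells 150.4 (131 to 172). The 15 and 11 SC-like cells of the metaphyseal libraries held 34 and 35 *Mmp2* UMIs. After every cell had been thinned to 2000 UMIs, 58.0%, 65.4% and 64.1% of OB-like cells kept a *Mmp2* UMI, against 49.2%, 58.0% and 58.8% of mpMSC-like cells and 106 of 212 SC-like cells. Without thinning these shares were 98.6%, 97.8% and 95.5%, then 84.7%, 88.0% and 86.2%, and 85.8%.

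Free RNA carried *Mmp2* too. Barcodes under 100 UMIs, which hold no cell, had 157, 151 and 237 *Mmp2* CPM. Such a value is the share of a gene within free RNA, not the amount that reaches a cell. Erythroid-like cells, which should lack it, held 20.8 (9.95 to 38.2) in the sorted library with a UMI in 17.5% of cells at a median depth of 8037 UMIs, and 1.79% after thinning. The level of bmEC-like cells there, 18.3 (7.89 to 36.0), is within the interval of that background, with a UMI in 8.33% of cells at a median depth of 4926 UMIs. After thinning, 5 of 81 bmEC-like cells (6.17%) kept a UMI against 1 of 56 erythroid-like cells. The order of the shares thus turned, on few cells. In metaphyseal libraries B lineage-like cells held 0 UMIs in 47 cells and 1 UMI in 32 cells.

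*Mmp23*, the type II membrane member, was found in all 3 large stromal classes at levels that were close together. dpMSC-like cells held 212, 202 and 266 CPM, OB-like cells 209, 200.3 and 232, and mpMSC-like cells 176, 145 and 243. These 3 classes overlapped across libraries, and chondrocyte-like cells, with 18.4, 18.0 and 29.9, lay below them in every library. SC-like cells held 74.0 (62.1 to 87.5) in the sorted library, fibroblast-like cells 77.9 (63.8 to 94.1) and mural-like cells 81.7 (53.8 to 119). *Mmp23* was thus at a lower level in SC-like cells than in the mpMSC-like cells of the same library. The metaphyseal SC-like cells held 10 and 6 *Mmp23* UMIs in 15 and 11 cells. aEC-, mpEC- and bmEC-like cells held 1.62 to 2.91 in the metaphyseal libraries and 5.33 to 20.6 in the sorted one, where erythroid-like cells held 14.5 (5.84 to 29.9) and free RNA 170. EC-like levels of *Mmp23* are at this background.

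*Mmp16*, a membrane-spanning member, was highest in OB-like cells, where it stood at 144, 147 and 71.9 CPM. mpMSC-like cells held 43.6, 37.8 and 25.9 and chondrocyte-like cells 6.68, 12.4 and 10.6. OB-like cells lay above mpMSC-like cells, and those above chondrocyte-like cells, in every library and without overlap. Chondrocyte-like cells overlapped with the neutrophil precursor gate (20.6, 0 and 8.94). The value of 20.6 came from 10 UMIs, 7 of them in 1 of 34 cells. Free RNA held 22.4, 30.6 and 24.4 CPM of *Mmp16*, near the mpMSC-like level of the sorted library and above the chondrocyte-, dpMSC- and SC-like levels. Far less of it was found in cells. The count was 0 in 425 bmEC-like cells of metaphyseal replicate 1 and in 421 mpEC-like cells of metaphyseal replicate 2, which allows up to 1.21 and 1.09 CPM. It was also 0 in 57 erythroid-like cells of the sorted library. dpMSC-like cells held 2.94, 4.62 and 4.37, and SC-like cells 8.16 (4.57 to 13.5). The OB-like level in the sorted library was the lowest of the 3 and its interval, 68.4 to 75.6, lay under both metaphyseal ones, but 1 sorted library gives no test. A *Mmp16* UMI was present in 87.3%, 86.5% and 51.5% of OB-like cells, and in 22.2%, 24.9% and 14.6% after thinning, when OB-like cells had median depths of 21174, 20994 and 11286 UMIs before it. In aEC-like cells the count was 0 in 76, 61 and 83 cells, which allows levels of up to 5.40, 6.95 and 6.92 CPM.

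*Mmp15*, another membrane-spanning member, was found in endothelial cells. aEC-like cells held 97.2, 95.03 and 62.2 CPM, mpEC-like cells 78.8, 71.2 and 32.0, other EC 48.0, 87.9 and 29.2, and bmEC-like cells 46.9, 46.5 and 29.7. aEC-like cells were above mpEC-like cells in each of 3 libraries, although the ranges overlapped, and all 4 EC classes lay above every other population with 3 libraries. The highest of those was dpMSC-like with 3.16, 1.95 and 1.68. SC-like cells held a single *Mmp15* UMI in 219 cells. The quasi-likelihood test of edgeR (Benjamini-Hochberg adjusted) called *Mmp15* higher in aEC-, mpEC-, bmEC-like and other EC than in the mean of the other populations, where 19.4%, 26.4%, 29.4% and 19.2% of all genes were called higher, and in no further population. A *Mmp15* UMI was present in 46.1%, 50.8% and 21.7% of aEC-like cells, and in 17.1%, 21.3% and 11.5% after thinning. Free RNA held 27.5, 35.2 and 1.20 CPM of it.

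**Figure D2:**
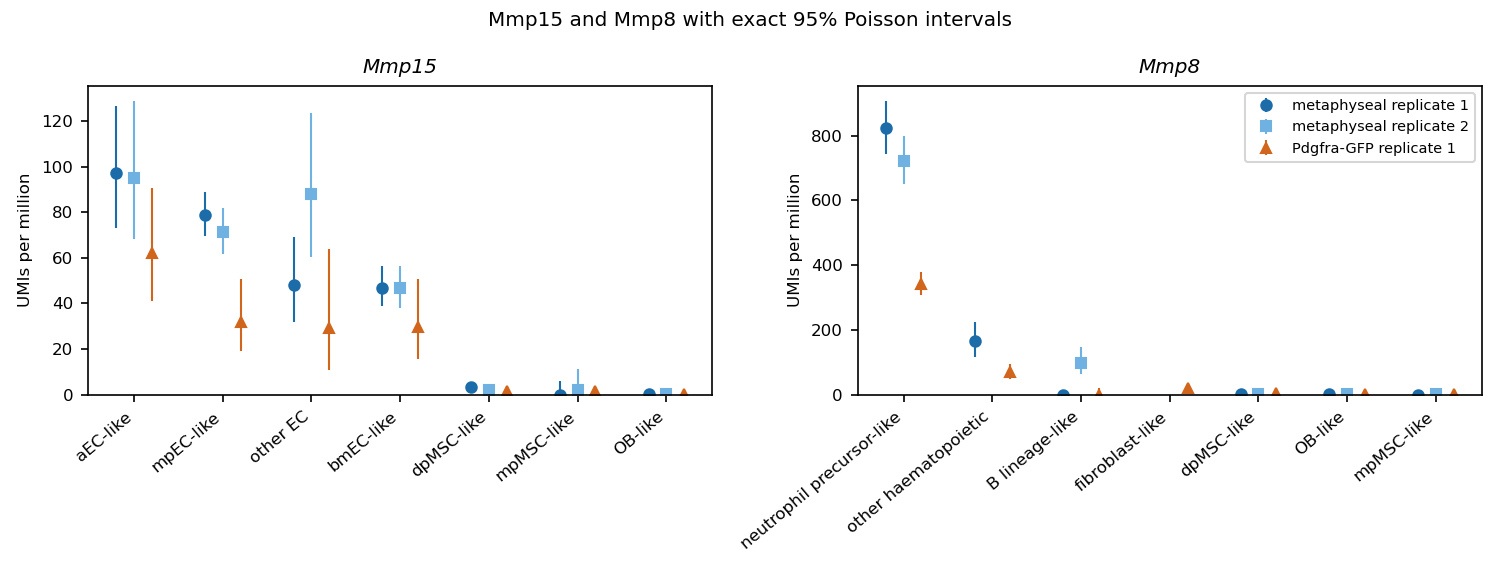
Levels of *Mmp15* (left) and *Mmp8* (right) in CPM by population, 1 point for each library and bars for exact 95% Poisson intervals, which cover counting error only. *Mmp15* is above 29 in every EC class and at most 3.16 in the stromal classes, and *Mmp8* is at 342 to 823 in neutrophil precursor-like cells.

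*Mmp8*, the neutrophil collagenase, was found in neutrophil precursor-like cells at 823, 723 and 342 CPM. Those sums came from 34, 34 and 99 cells, of which 19, 17 and 39 held a *Mmp8* UMI. Cells with more UMIs of the late granule genes *Ltf*, *Ngp* and *Camp* than of the early granule genes *Elane* and *Mpo* held 875, 800.4 and 521 CPM, in 32, 32 and 74 cells. In the sorted library the 25 cells with the opposite balance held 4 *Mmp8* UMIs (10.2 CPM), all in 1 cell. *Mmp8* was thus seen in the cells with late granule genes, which are gate markers. Other haematopoietic cells held 164 (116 to 225) in metaphyseal replicate 1 and 69.6 (49.5 to 95.2) in the sorted library.

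The neutrophil precursor gate also held stromal RNA, with *Mmp2* at 32.9, 3.86 and 86.8 CPM, *Mmp23* at 20.6, 0 and 45.6, *Mmp16* at 20.6, 0 and 8.94, and *Sp7* at 32.9, 0 and 25.9. *Mmp3*, *Mmp16* and *Mmp23* were called higher there than in the mean of the other populations, as were 21.1% of all genes. Some of these counts sat in single cells. In metaphyseal replicate 1, 12 of 16 *Mmp2* UMIs and 7 of 10 *Mmp16* UMIs were each in 1 of 34 cells. In the sorted library 7 of 10 *Mmp3* UMIs were in 1 of 99 cells. The part of stromal RNA in those calls was not tested.

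Outside these cells *Mmp8* UMIs sat in few cells. All 24 UMIs of the B lineage-like cells of metaphyseal replicate 2 were in 1 of 32 cells, and the other libraries had none in 47 cells each. Of 28 UMIs in fibroblast-like cells, 27 were in 1 of 210 cells. OB-like cells held 0.909, 1.30 and 2.65 CPM, beside 40.04, 33.4 and 5.27 in free RNA. SC-like cells held 0 *Mmp8* UMIs in 219 cells, which allows a level of up to 1.63 CPM.

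*Mmp3*, the stromelysin, was seen almost only in the sorted library, with 454 of its 460 UMIs. The superficial chondrocyte-like cells there, which carry *Prg4* of the joint surface as a gate marker, held 104 (88.2 to 122) CPM, and 40 of 270 cells had a UMI (14.8%), with 52 of the 149 UMIs in 1 cell. Fibroblast-like cells held 47.3 (36.5 to 60.3) in 12 of 210 cells, with 35 of the 65 UMIs in 1 cell. Chondrocyte-like cells held 9.47 (7.94 to 11.2) in the sorted library, beside 10.7 in its free RNA, against 1 UMI in 38 cells and 0 in 36 cells of the metaphyseal ones. mpMSC-like cells held 1 UMI in 1336 cells, and SC-like cells 2 in 219. The metaphyseal libraries had no sum of superficial chondrocyte- or fibroblast-like cells, so these *Mmp3* levels rest on 1 library. Sorting and the region of bone taken cannot be told apart here, and neither was tested.

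*Mmp19* and *Mmp17* were low genes of the stroma. dpMSC-like cells held 15.1, 16.8 and 12.9 *Mmp19* CPM, above mpMSC-like cells with 4.67, 1.99 and 8.90 in each library and without overlap. The mpMSC-like values rest on 3, 1 and 75 UMIs. Macrophage-like cells of the sorted library held 18.2 (8.32 to 34.5) from 9 UMIs, and fibroblast-like cells 10.9 (6.11 to 18.0). OB-like cells had 0 *Mmp19* UMIs in 212 and in 185 cells, and 8 in 1874 cells. For *Mmp17*, mpMSC-like cells held 10.9, 9.95 and 11.4 CPM and dpMSC-like cells 11.98, 9.97 and 7.24, and these overlapped. SC-like cells held 10.9 (6.65 to 16.8) *Mmp17* and OB-like cells 0.909, 0.781 and 0.419. The highest gated value was that of mural-like cells in the sorted library, 18.2 (6.66 to 39.5), from 6 UMIs in 55 cells. Free RNA held 7.45, 4.11 and 3.31 of *Mmp17* and 5.59, 2.29 and 6.32 of *Mmp19*, close to several of these levels. OB-like cells lay below these shares for both genes in every library, so the shares are not the level that each cell takes up.

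*Mmp12*, the macrophage elastase, had 4 UMIs in 75 macrophage-like cells of the sorted library, 8.09 (2.20 to 20.7) CPM. SC-like cells of that library had 3 in 219 cells, and the 19 osteoclast-like cells had 0. With 15 UMIs in all, no order of populations was detectable at this depth.

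SC-like cells were then compared with mpMSC-like cells, the stroma they lie next to. The libraries' p-values measure only the spread between these samples, which may be technical. Of the 8 members tested, 1 was called lower and 0 higher, beside 4.91% of all genes called in either direction, 2.87% higher and 2.03% lower (the quasi-likelihood test of edgeR (Benjamini-Hochberg adjusted)). *Mmp23* stood at 74.0 in SC-like and 243 in mpMSC-like cells of the sorted library. It was lower by a log2 fold change of -1.78 (SE 0.39, adjusted p = 0.00501 by edgeR). *Mmp16* stood at 8.16 against 25.9, with a log2 fold change of -1.77 (SE 0.56, adjusted p = 0.0721 by edgeR), and it passed with sums of at least 10 cells (adjusted p = 0.0261). *Mmp2* stood at 316 against 479, with a log2 fold change of -0.63 (SE 0.38, adjusted p = 0.500 by edgeR). The median of the 8 members was -1.48 and that of all genes -0.02. *Mmp8*, *Mmp15*, *Mmp3* and *Mmp19* had only 0, 1, 2 and 4 UMIs in these SC-like cells, so the median of the members rests in part on counts near 0.

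This comparison rests on 1 SC-like sum, which is assumed to vary like the other sums. With sums of at least 10 cells, all 3 libraries gave SC-like cells, and *Mmp23* differed by -1.76. In the metaphyseal libraries alone, a setting added after the data were seen, it differed by -1.61 and the edgeR call held (adjusted p = 0.0218). The median depth of SC-like cells was 8068 UMIs and that of mpMSC-like cells 6178.5 in the sorted library. The call of *Mmp23* was lost without metaphyseal replicate 1 (log2 fold change -1.80, adjusted p = 0.0821 by edgeR), when clusters replaced the gate (-1.86, adjusted p = 0.713) and without the library as a block (-1.33, adjusted p = 0.689).

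dpMSC-like cells, against mpMSC-like cells, had 2 members lower and 1 higher, beside 27.2% of all genes called in either direction, 14.8% higher and 12.5% lower. *Mmp2* was lower (log2 fold change -3.06, SE 0.28, adjusted p = 1.15e-09 by edgeR), and so was *Mmp16* (-2.97, SE 0.33, adjusted p = 6.81e-08). *Mmp19* was higher (1.18, SE 0.41, adjusted p = 0.0327 by edgeR), a call that 7 alternatives lost, among them those without metaphyseal replicate 1 (adjusted p = 0.223) and without metaphyseal replicate 2 (adjusted p = 0.245). *Mmp23* differed by 0.27 (SE 0.24, adjusted p = 0.445 by edgeR) and did not pass. *Mmp2* and *Mmp16* were thus the members that differed most between both stromal classes.

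OB-like cells had 3 members higher and 3 lower than mpMSC-like cells, beside 36.0% of all genes in either direction, 17.7% higher and 18.2% lower. *Mmp16* was higher (log2 fold change 2.49, SE 0.27, adjusted p = 4.81e-08 by edgeR). *Mmp17* (-3.44, SE 0.47), *Mmp19* (-3.85, SE 0.57) and *Mmp15* (-2.06, SE 0.63) were lower. OB-like cells held only 4, 3 and 9 *Mmp17* UMIs, 0, 0 and 8 of *Mmp19*, and 2, 1 and 3 of *Mmp15*. With counts so few, the fitted sizes depend on the prior count. For *Mmp15*, mpMSC-like cells held 0, 1 and 13 UMIs, and metaphyseal replicate 1 went the other way (0.455 against 0 CPM). *Mmp2* (1.13, SE 0.26, adjusted p = 7.90e-04 by edgeR) and *Mmp23* (0.94, SE 0.24, adjusted p = 0.00267) were called higher with scaling factors from TMM, and the *Mmp23* call was lost without metaphyseal replicate 1 (adjusted p = 0.0770). OB-like sums got TMM factors of 0.738, 0.717 and 0.583, against 1.14, 1.13 and 1.07 for mpMSC-like sums, which raises every OB-like level by comparison. By total UMIs alone, a scaling added after the data were seen, *Mmp2* differed by 0.42 (adjusted p = 0.217) and *Mmp23* by 0.23 (adjusted p = 0.486), and the median of all genes by -0.75. The other 4 members kept their direction and their call under that scaling. *Mmp15* in OB-like cells differed by -0.58 (adjusted p = 0.864 by edgeR) without the *Pdgfra-GFP* library.

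**Figure D3:**
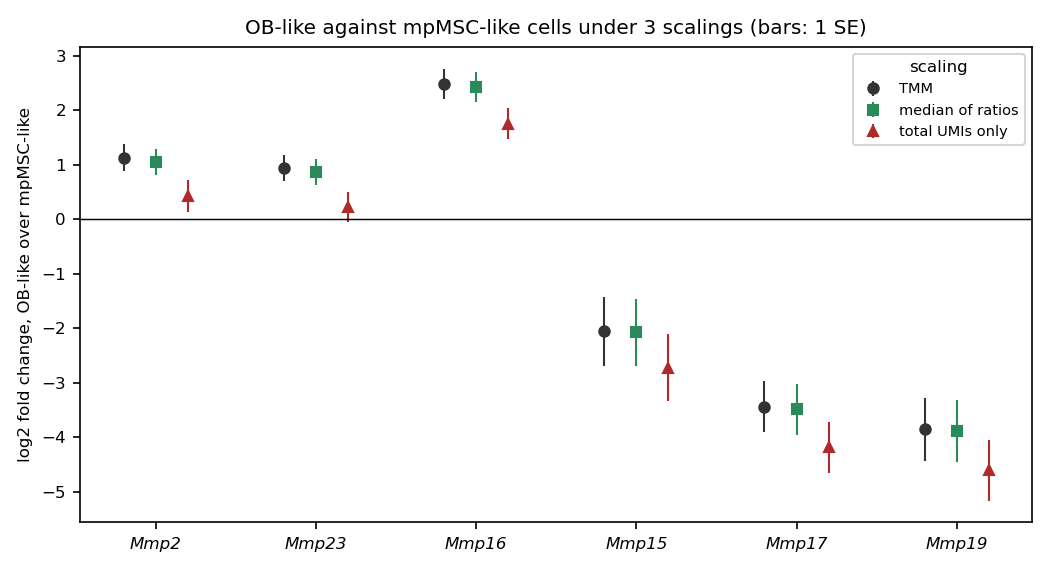
Log2 fold change of OB-like over mpMSC-like cells for the 6 members called by edgeR, with 3 ways of scaling the sums and bars for 1 SE. *Mmp2* and *Mmp23* move from 1.13 and 0.94 to 0.42 and 0.23 when only total UMIs are used, and *Mmp16* stays at 1.75 or more.

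EC-like cells, taken as the mean of aEC, mpEC and bmEC, had 1 member higher and 5 lower than mpMSC-like cells, beside 45.3% of all genes called, 21.1% higher and 24.2% lower. *Mmp15* was higher (log2 fold change 4.81, SE 0.32, adjusted p = 2.56e-13 by edgeR), at 74.3, 70.9 and 41.3 CPM against 0, 1.99 and 1.54. In the sorted library, the only one with more than 3 UMIs in mpMSC-like cells, this is a ratio of 26.8. *Mmp2* was lower by -2.85 (SE 0.21) and *Mmp23* by -5.70 (SE 0.29). *Mmp16* (-7.26), *Mmp17* (-3.08) and *Mmp19* (-2.84) were lower too, with EC-like counts so few that the fitted size depends on the prior count. The *Mmp19* call was lost without the *Pdgfra-GFP* library (adjusted p = 0.147 by edgeR).

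Chondrocyte-like cells had 5 members lower and 1 higher than mpMSC-like cells, beside 36.7% of all genes called, 19.3% higher and 17.4% lower. *Mmp2* (-1.39, SE 0.27), *Mmp23* (-2.64, SE 0.30), *Mmp16* (-1.06, SE 0.34), *Mmp17* (-3.08, SE 0.52) and *Mmp19* (-4.55, SE 0.72) were lower. Only 0, 0 and 14 *Mmp17* UMIs and 0, 0 and 3 *Mmp19* UMIs were in chondrocyte-like cells. The fitted sizes of both therefore depend on the prior count. *Mmp3* was called higher (6.13, SE 0.90, adjusted p = 1.33e-05 by edgeR), from 135 UMIs in 46 of 1561 sorted cells, and DESeq2 did not call it (adjusted p = 0.589). The *Mmp2* call was lost when clusters replaced the gate (adjusted p = 0.175). The *Mmp19* call was lost without the *Pdgfra-GFP* library (adjusted p = 0.173) and that of *Mmp16* without metaphyseal replicate 1 (adjusted p = 0.0993 by edgeR).

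Fibroblast-like cells, present in the sorted library alone, had 2 members higher and 2 lower than mpMSC-like cells, beside 17.4% of all genes called, 10.3% higher and 7.06% lower. *Mmp3* was higher (8.28, SE 0.90, adjusted p = 8.11e-07 by edgeR), though not by DESeq2 (adjusted p = 0.541). *Mmp8* was called higher (6.08, adjusted p = 0.00255 by edgeR), a call that rests on the 1 cell with 27 UMIs and turned to -2.51 with a stricter gate. *Mmp23* (-1.50, SE 0.40) and *Mmp16* (-1.88, SE 0.65) were lower. Both calls were lost without metaphyseal replicate 1 (adjusted p = 0.0692 and 0.0808 by edgeR), and that of *Mmp16* without metaphyseal replicate 2 (adjusted p = 0.0528). *Mmp2* stood at 461 against 479 and did not pass (adjusted p = 0.892 by edgeR).

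**Figure D4:**
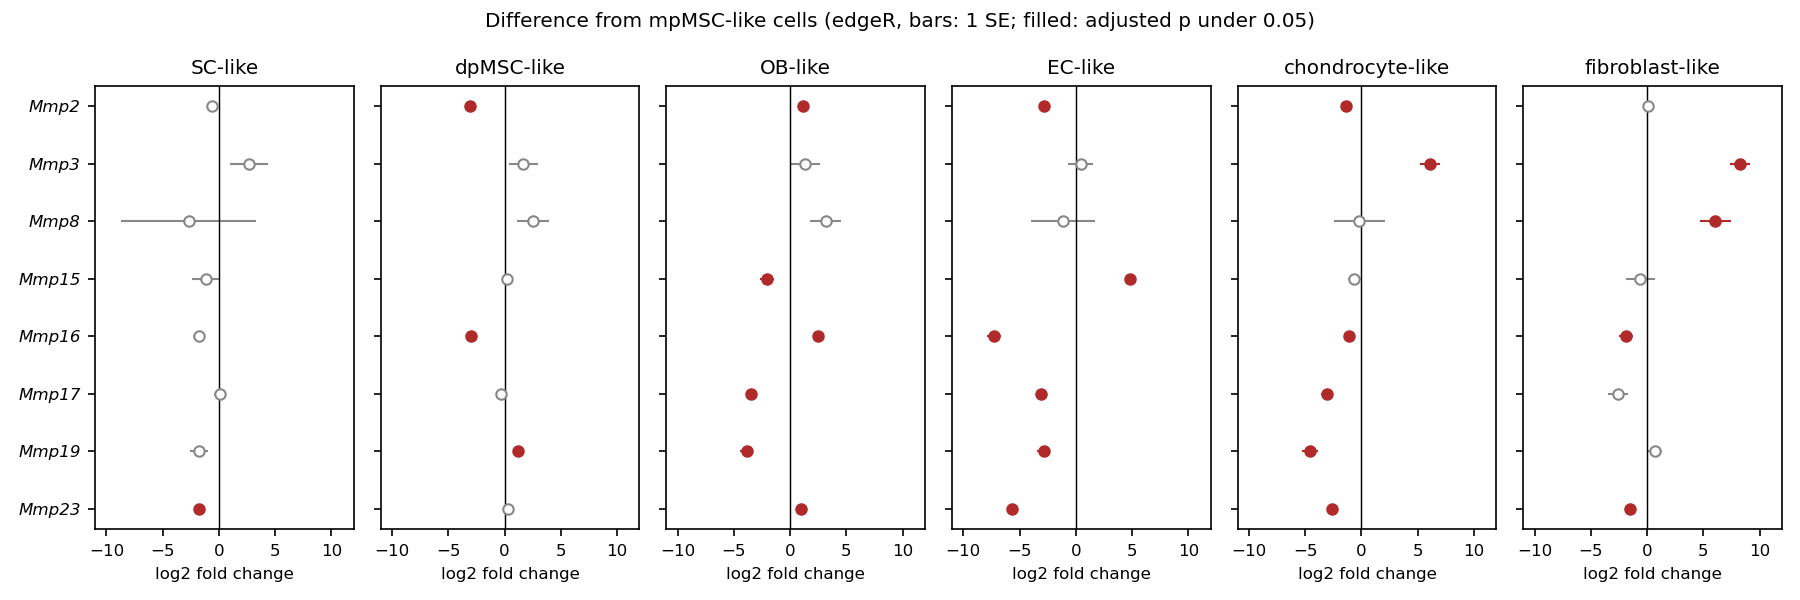
Log2 fold change of each tested member against mpMSC-like cells in 6 comparisons, with bars for 1 SE and filled points for an edgeR adjusted p under 0.05. SC-like cells show 1 filled point (*Mmp23*), and EC-like, OB-like and chondrocyte-like cells 6 each.

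Of 10 other MMP genes outside the reported and the present ones, only *Mmp25* passed the filter. Of the 6 comparisons with mpMSC-like cells it was called in that of EC-like cells, as higher (log2 fold change 3.65, adjusted p = 0.0328 by edgeR). Its levels were higher still in neutrophil precursor-like cells, at 57.6, 81.1 and 21.5 CPM, beside 8.20, 9.81 and 14.2 in mpEC-like cells, and neutrophil precursors were in none of the 6. *Mmp1a*, *Mmp1b*, *Mmp7* and *Mmp21* had 0 UMIs in the sums. *Mmp10* (stromelysin-2, between *Mmp3* and *Mmp8* on chromosome 9) was singled out after its values were seen. It had 24 UMIs in 8 of 219 SC-like cells of the sorted library, 13.1 (8.37 to 19.4) CPM, against 1 UMI in 1336 mpMSC-like cells. The metaphyseal chondrocyte-like cells held 5 *Mmp10* UMIs in 3 of 38 cells and 11 in 4 of 36 cells, and the 15 and 11 SC-like cells there held 0. In the sorted library chondrocyte-like cells held 9 *Mmp10* UMIs, all in 1 of 1561 cells (0.631 CPM).

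Of 22 genes that activate or inhibit MMPs, 20 were tested in SC-like against mpMSC-like cells, where 1 was lower and 0 were higher, beside the 4.91% of all genes. The median of the 20 was 0.10 and that of all genes -0.02. The gene that was lower was *A2m*, which encodes a protease-trapping plasma protein (log2 fold change -5.89, SE 0.87, adjusted p = 8.51e-05 by edgeR). *A2m* stood at 1.09 CPM in SC-like cells, from 2 UMIs, and 78.3 in mpMSC-like cells of the sorted library. OB-like, fibroblast-like and dpMSC-like cells there held 2.65, 3.64 and 20.9. *A2m* was also called lower in OB-, dpMSC-, EC-, chondrocyte- and fibroblast-like cells, so its low level is not particular to SC-like cells. The tissue inhibitors *Timp1*, *Timp2* and *Timp3* stood at 801, 392 and 155 in SC-like cells and 355, 368 and 114 in mpMSC-like cells there, and none passed. In OB-like cells 8 of the 20 were higher and 3 lower, beside 17.7% and 18.2% of all genes. In dpMSC-like cells 3 were higher and 6 lower, beside 14.8% and 12.5%. In EC-like cells 4 were higher and 12 lower, beside 21.1% and 24.2%. In chondrocyte-like cells 6 were higher and 4 lower, beside 19.3% and 17.4%, and in fibroblast-like cells 8 and 1, beside 10.3% and 7.06%.

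The genes most like each member were found by Pearson's r of log2(CPM + 1) over the 38 sums, which share libraries and depth. They are given as a description, and gate markers were left out. For *Mmp2* they were *Slc44a1*, *Timp1* and *Ccn4* (r = 0.908, 0.903 and 0.900), and *Timp1* is a tissue inhibitor of MMPs. For *Mmp23* they were *Ptprd*, *Fap* and *Lox* (0.929, 0.922 and 0.922), where *Fap* encodes a membrane protease of stromal cells and *Lox* the enzyme that crosslinks collagen. For *Mmp16* they were *Shc2*, *Plb1* and *Fabp3* (0.915, 0.898 and 0.891). *Mmp15* was most like *Ccm2l*, an endothelial gene, *Hoxb7* and *Gm9917* (0.968, 0.966 and 0.965). *Mmp8* was most like *Padi4*, *Fpr1* and *Ifitm6* (0.956 each), of which *Fpr1* is the formyl peptide receptor of neutrophils. *Mmp3* was most like *Gsc*, *Slurp1* and *Sema3e* (0.934, 0.930 and 0.915), *Mmp17* like *Olfm2*, *Wls* and *Ror1* (0.840, 0.835 and 0.835), and *Mmp19* like *Cyp4v3*, *Fth1* and *Npc2* (0.823, 0.765 and 0.737).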

How the data were processed

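Cells of long bone were measured by droplet 3′ RNA-seq in 2 metaphyseal libraries and 1 *Pdgfra-GFP* library. The authors trimmed reads with fastp 0.20 and aligned and counted them with STARsolo (STAR 2.7.3a) against mm10 with Gencode M23 genes and an added H2B-GFP sequence. The deposited values are raw UMI counts per gene and barcode, not normalized and not filtered for cells. The authors set STARsolo to mirror unfiltered Cell Ranger output, but the counting strand is not given in the sources used here. Whether cells of several animals were pooled was not found there either.

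Barcodes were kept as cells at 1500 genes or more (metaphyseal) or 1000 or more (*Pdgfra-GFP*), with at most 15% mitochondrial and 30% ribosomal UMIs. Cells were gated by marker scores of at least 0.25 that led the next class by 0.05 with at least 3 markers detected, and these limits were set after values had been seen. No MMP gene entered a gate. Scrublet marked 203 doublets (1.29% of cells), which were kept. Counts were summed per library and population (at least 20 cells) and fitted with edgeR 4.0.16 (quasi-likelihood test, TMM, low-count filter, library as a block, R 4.3.3) over 12142 genes, with Benjamini-Hochberg adjustment at 0.05. Populations with 1 sum, such as SC-like and fibroblast-like cells, were assumed to vary like the others. Fitted folds against groups near 0 depend on the prior count. The SE of an edgeR fold change was derived from its test, as the absolute log2 fold change divided by the square root of the quasi-likelihood F. DESeq2 1.42.0, scanpy 1.11.5 and scipy 1.17.1 were also used. Shares of cells were compared after thinning to 2000 UMIs, and free RNA was read from barcodes under 100 UMIs.

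The genes named were the 9 members, the 3 genes most correlated with each member of at least 100 UMIs (gate markers left out), and, from lists of MMP genes and of their activators and inhibitors, those called in SC-like cells. The members and lists were chosen with earlier results of these data known. Alternatives covered the test, scaling, filters, gate, clusters, doublets, depth, the block, the size of a sum and each library left out.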

Additional observations from a re-analysis of the deposited data

Results flagged for a closer look

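For *Mmp17*, the level in dpMSC-like over mpMSC-like cells was 1.10 and 1.002 in metaphyseal replicates 1 and 2. It was 0.636 in the *Pdgfra-GFP* library, on the other side of 1. The metaphyseal ratios rest on only 7 and 5 *Mmp17* UMIs in mpMSC-like cells, too few to tell them from 1. For *Mmp23*, the level in OB-like over mpMSC-like cells was 1.19, 1.38 and 0.956 in the same order. With 1 sorted library, neither difference was tested.

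The cells that no gate took, which enter no comparison, also held these genes. Summed over the 3 libraries they had 312 *Mmp2*, 122 *Mmp23*, 33.8 *Mmp8*, 24.5 *Mmp16*, 12.4 *Mmp3*, 7.96 *Mmp17*, 3.98 *Mmp19* and 2.30 *Mmp15* CPM, above the limit that a count of 0 allows.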

How the results depend on the processing

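Counts of members called against mpMSC-like cells moved as follows. SC-like cells had 2 with no filter on low counts, with sums of at least 10 or at least 50 cells and with a stricter gate, and 0 with no library block, with clusters in place of gates and without metaphyseal replicate 1 (0 to 1 over the libraries left out, beside 1). OB-like cells had 3 with no library block, 3 after thinning, and 7 with no filter, with at least 50 cells a sum and with the stricter gate (4 to 7 over the libraries left out, beside 6). Chondrocyte-like cells had 3 without the *Pdgfra-GFP* library and 3 when sums of at least 10 cells were used as well (3 to 6, beside 6). Fibroblast-like cells had 2 with DESeq2, 2 with no library block and 1 with clusters, and 5 in each of 5 other settings (no filter, at least 10 cells, at least 50 cells, doublets left out, total UMIs alone), with 2 to 3 over the libraries left out, beside 4. Over the libraries left out, EC-like cells had 4 to 6 (beside 6) and dpMSC-like cells 2 to 3 (beside 3). dpMSC-like cells had 4 with no filter and with at least 50 cells a sum. Against the mean of the other populations, 19 pairs were called with at least 50 cells a sum, where only 7 populations were tested, and 17 after thinning, where only 6 members were tested (20 to 29 over the libraries left out, beside 30).

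*Mmp8* turned to -2.51 in fibroblast-like cells with the stricter gate, and in B lineage-like cells to -3.32 with that gate and to -4.30 without metaphyseal replicate 2 (-4.30 to 6.02 over the libraries left out, beside 4.75). The mean level of *Mmp17* in mpMSC-like cells was 9.46 with the stricter gate and 14.4 with clusters, beside 10.7. The causes were not tested. Without the library as a block, the SC-like call of *Mmp23* had an adjusted p of 0.689. The block pairs the populations by library, since those of a library come from the same cell suspension. Libraries of the 2 kinds were not paired with each other.

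Over all genes the calls ranged from 75 to 1085 in SC-like (main 596), 2219 to 7563 in OB-like (4367), 2356 to 5520 in chondrocyte-like (4459), 1779 to 4782 in dpMSC-like (3308), 1113 to 3064 in fibroblast-like (2112) and 3016 to 6798 in EC-like cells (5496). By total UMIs alone, 747 genes were higher and 6816 lower in OB-like cells (2152 and 2215 with TMM), 1355 and 4165 in chondrocyte-like (2344 and 2115), and 1043 and 1156 in fibroblast-like cells (1255 and 857). Low counts limit *Mmp12*, *Mmp17* and *Mmp19*, and 1 sorted library limits *Mmp3* and the SC-like cells.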
